A study of Mus musculus with 3 samples.

Results

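The genes of mitosis and of the passage from G2 into M phase were followed in cultured mouse biliary epithelial cells (BECs) that were kept in control medium, deprived of serum or given the bile acid conjugate glycochenodeoxycholic acid (GCDC). The 56 genes were taken from a written list of mitotic regulators and structural proteins, and each was read from the probe with the highest mean of the 3 arrays. Of the 56 genes, 53 were found among the 19321 gene symbols of the 23473 gene probes, and *Ccnb1*, *Foxm1* and *Kif2c* are not analysed here. *Smc2* and *Ncapg* had 2 probes each and the others 1.

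RNA was measured on 3 one-colour arrays, 1 for control BECs, 1 for serum-depleted BECs (serum depletion) and 1 for BECs in medium with 200 μM GCDC. The study used these treatments to bring BECs into cellular senescence, a lasting stop of proliferation. The labels give 4 to 7 days of treatment, and the paper's results give 7 days for its counts of upregulated genes. The intrahepatic BECs came from female BALB/c mice of 8 weeks and grew in DMEM/F-12 to which epidermal growth factor, insulin, forskolin and 10% Nu-serum had been added, the medium that the growth protocol lists for all 3 samples, and each array held an RNA pool of 2 independent experiments. With 1 array per condition in these data no difference has a replicate check here, and no test was made. In bulk RNA, fewer dividing cells and less RNA of a gene per cell cannot be told apart.

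A level is a probe's intensity above the blank spots of its array, scaled so that the valid gene probes have a median of 25, and valid probes are those over the mean of the blanks by more than 2 of their SD. From 86.1% to 89.2% of gene probes were valid on the 3 arrays. Ratios are given as log2 of one level over the other, and a gene is said to have fallen or risen only past 2-fold. Positive control spots, repeated 24 times on each array, had CVs of 8.93% to 14.4%, and the largest CV of each array gave an SD of 0.26 (serum depletion over control), 0.21 (GCDC over control) and 0.26 (serum depletion over GCDC) for a log2 ratio. This error covers bright spots within an array and leaves out the spread between cultures. The 11 of 14 cholangiocyte markers on the array were valid on every array, with *Krt19*, a keratin of bile duct cells, at 13442 in control, 11882 in serum depletion and 27738 in GCDC. *Sox9*, also on the cholangiocyte list, was far dimmer, at 16.7 in control, 20.6 in serum depletion and 23.1 in GCDC. *Alb*, the defining hepatocyte gene, was at 3.66 in control, 2.34 in serum depletion and 3.44 in GCDC, and the macrophage marker *Adgre1* was valid on no array. Some other markers were brighter. The hepatocyte marker *Hnf4a* was at 135 in control, 133 in serum depletion and 108 in GCDC. The macrophage markers *Cd68* and *Csf1r* were at 42.5 and 42.1 in control, 43.8 and 45.1 in serum depletion, and 63.5 and 52.1 in GCDC.

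Entry into mitosis is driven by CDK1 with A-type and B-type cyclins, and is carried through by the polo-like and Aurora kinases. Condensins and topoisomerase II shape the chromosomes, kinetochores and kinesins attach and move them, the spindle assembly checkpoint delays anaphase until all are attached, and the anaphase-promoting complex (APC/C) then marks cyclins and securin for destruction. Transcripts of most of these genes are made in late S, G2 and M phase, so they are used as markers of dividing cells, which are few in a resting bile duct.

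In serum depletion 40 of the 49 members valid on both arrays fell against control and 0 rose, while 11.1% of all 19809 gene probes compared fell and 13.5% rose. The median log2 ratio of the members was -1.97 (3.91-fold lower), against 0.16 over all gene probes, with a range from -4.18 for the checkpoint kinase gene *Bub1* to 0.71 for *Bub3*. A fall past 4-fold was seen in 22 members, and in 3.22% of all gene probes. On the control array 46 of the 53 members had levels over 25, and at such control levels 39 of 46 members fell beside 14.6% of gene probes. The control level that sets this split is also the denominator of the ratio, so the split by itself favours falls. In all, 42 of the 49 were lower by more than 2 SD of the spot error (0.51 on the log2 scale) and 2, *Bub3* and *Ncaph*, were higher by more than that. The 6 members within 1 SD of the 2-fold threshold, *Melk*, *Cenph*, *Cenpk*, *Fzr1*, *Pttg1* and *Espl1*, were all counted as fallen.

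In GCDC 35 of 52 members fell and 0 rose, beside 8.51% and 13% of the 20087 gene probes compared. Their median log2 ratio was -1.56 (2.94-fold lower), against 0.23 over all gene probes, and the ratios ran from -3.57 for the kinetochore gene *Nuf2* to 0.91 for the condensin gene *Ncaph*. Falls past 4-fold numbered 16 members, and were 2.07% of all gene probes. Within 1 SD of the spot error (0.21) of the 2-fold threshold lay 5 members. Of these, *Melk*, *Cenpk*, *Cenpa* and *Birc5* were counted as fallen and *Cenph* was not. With a control level over 25, again a split by the denominator of the ratio, 34 of 46 members fell, as did 10.8% of gene probes. Both treatments were set against the same control array, so any error of that array enters both sets of ratios. Among the gene probes of each array, the median member stood at the 68.8th percentile of signal in control cells, the 49.2nd in serum depletion and the 52.3rd in GCDC, an order that needs no scaling between arrays.

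**Figure D1:**
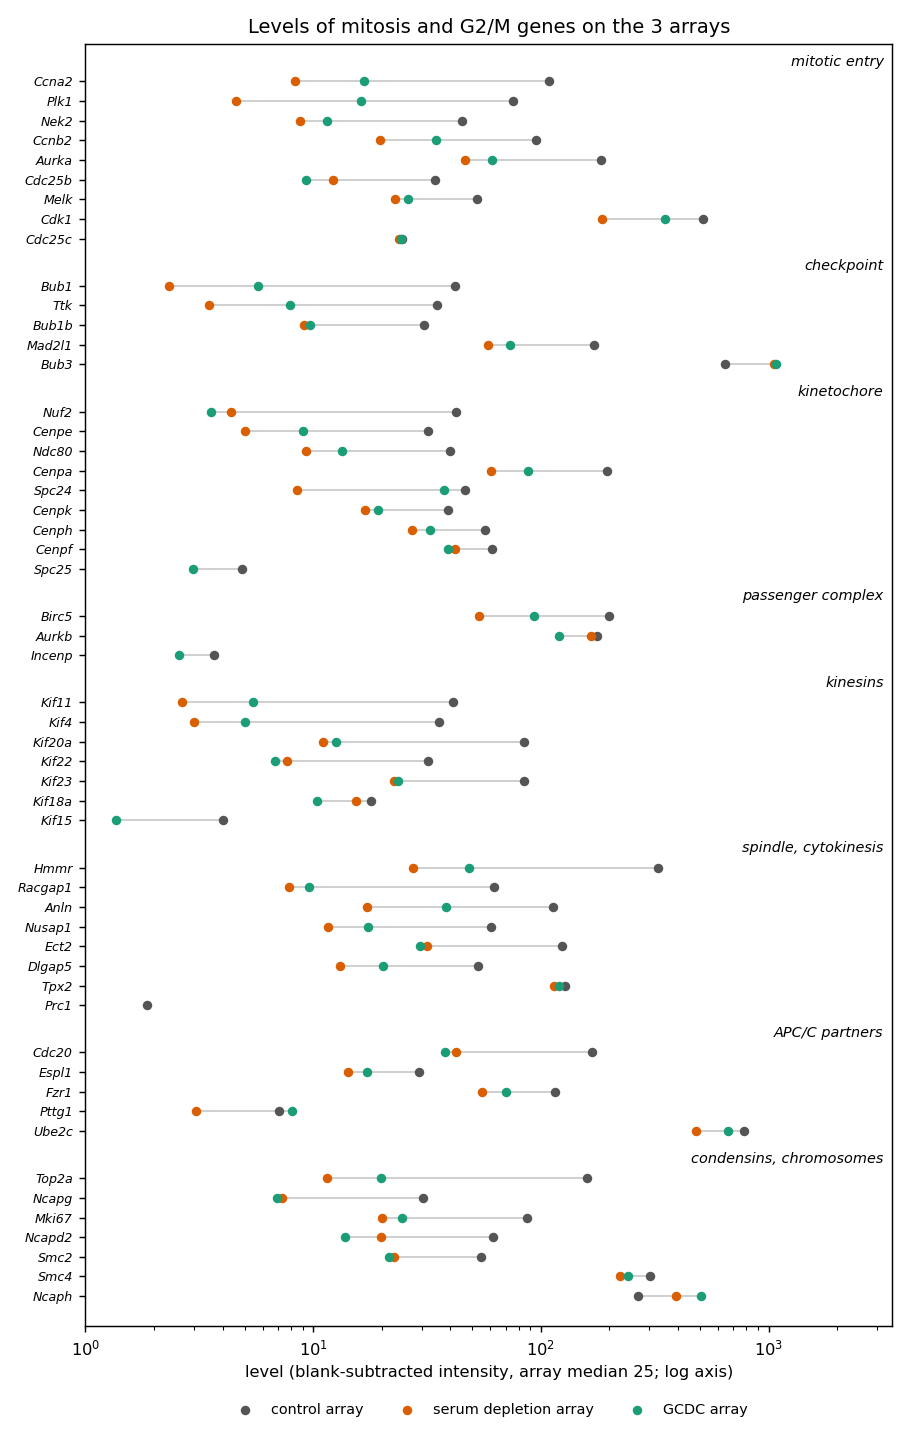
Level of each of the 53 genes on the control (grey), serum depletion (orange) and GCDC (green) arrays, by role, on a log axis of blank-subtracted intensity scaled to an array median of 25. Each point is 1 array, a missing point is a probe that was not valid there, and for most genes the grey point lies to the right of both others, with *Bub3* and *Ncaph* as genes where it lies to the left.

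The promoters were searched for a pair of motifs that are known from cell cycle genes. TTTGAA is the core of the cell cycle genes homology region (CHR), which is bound through LIN54 by the MuvB complexes that repress these genes in arrested cells and activate them in G2, and CCAAT is the box bound by NF-Y. Windows of 300 bases, from 250 before to 50 after an annotated start site, were taken from RefSeq (GRCm38.p6) for 44 of the 53 members, and a gene was counted where any of its windows held the motif. Read on both strands, TTTGAA was found in 29 of the 44 (65.9%) and in 20.2% of all 27025 symbols with a window. Within 50 bases of the start site it was found for 27 members (61.4%) and 5.84% of all symbols. CCAAT was found for 33 members (75%) and 41.1% of all symbols, both motifs for 26 members (59.1%) and 7.97% of all symbols, and in 0 members did the 2 motifs overlap. The 42 TTTGAA matches had a median position of -15 bases and the 77 CCAAT matches one of -69 bases from the start site.

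**Figure D2:**
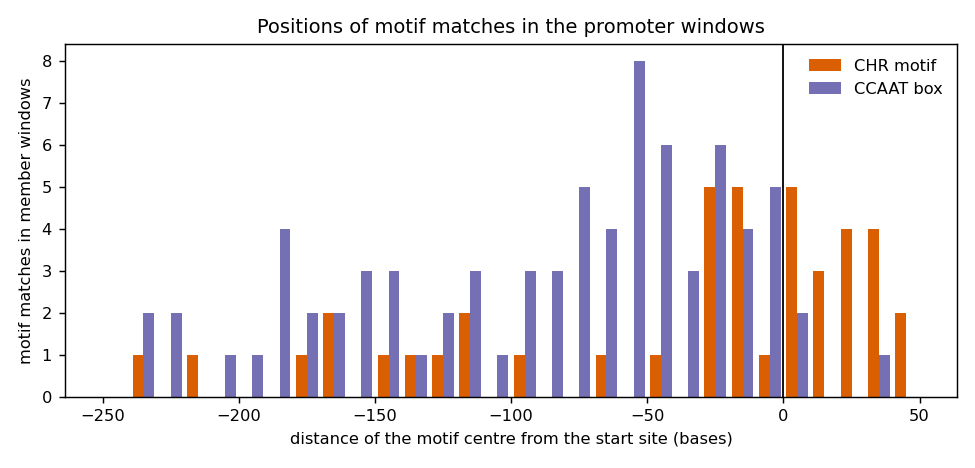
Number of motif matches (vertical axis) by the distance of the motif centre from the annotated start site in bases (horizontal axis, bins of 10 bases) in the member promoter windows, for the CHR motif (orange) and the CCAAT box (purple). Of the CHR matches 30 of 42 lay within 50 bases of the start site, and of the CCAAT matches 27 of 77.

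Falls were counted among members with and without TTTGAA. Of members with TTTGAA, 23 of 26 compared fell in serum depletion and 22 of 28 in GCDC. Of members whose windows held no TTTGAA, 13 of 15 fell in serum depletion and 10 of 15 in GCDC. Over all genes with a window, 12% of those with TTTGAA and 10.9% of those without it fell in serum depletion, and 9.26% and 8.23% in GCDC. With a match within 50 bases of the start site 18.2% of all genes, members included, fell in serum depletion, beside 10.7% of the genes without one, and the shares in GCDC were 15.5% and 8.08%. A match is a description of the sequence, and its absence says only that these letters are not in the window. The fallen genes whose windows are printed below all hold both motifs, so they do not stand for every fallen gene. *Bub1*, the member with the lowest mean of both log2 ratios (-3.53), held CCAAT and no TTTGAA. *Bub3*, which was higher on both treated arrays, held both motifs.

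Of the 9 genes of mitotic entry on the array, 8 fell in serum depletion and 7 in GCDC. The shares fallen over all gene probes, 11.1% and 8.51%, stand beside this count and those of the other roles below. *Plk1*, the polo-like kinase of mitotic entry, was at a level of 75.1 in control, 4.57 in serum depletion and 16.2 in GCDC, a 16.4-fold and a 4.63-fold fall. Its serum depletion level was just over the highest negative control spot of that array (4.10), so this fall ends near background. *Ccna2*, the cyclin that serves S phase and early mitosis, was at 109 in control, 8.34 in serum depletion and 16.7 in GCDC (log2 ratios -3.70 and -2.70). *Nek2*, a kinase of centrosome separation, was at 45.0 in control, 8.76 in serum depletion and 11.5 in GCDC (log2 ratios -2.36 and -1.97). *Ccnb2*, a B-type cyclin, was at 94.8 in control, 19.7 in serum depletion and 34.6 in GCDC (log2 ratios -2.26 and -1.45). For *Plk1*, *Ccna2*, *Nek2* and *Ccnb2* the control array was highest and the serum depletion array lowest. *Aurka*, the Aurora kinase of the centrosomes, fell to log2 ratios of -1.98 and -1.59, *Melk*, a maternal embryonic leucine zipper kinase, to -1.20 and -1.01, and *Cdc25b*, a phosphatase that removes the inhibitory phosphates of CDK1, to -1.49 and -1.89. *Cdk1* itself was at 517 in control, 186 in serum depletion and 353 in GCDC, so that it fell in serum depletion (-1.47) and stayed within 2-fold of control in GCDC (-0.55). *Cdc25c*, the phosphatase best known for activating CDK1 at mitosis, was at 24.5 in control, 23.8 in serum depletion and 24.2 in GCDC, with log2 ratios (-0.04 and -0.01) inside the spot error. *Plk1* had the largest fall of this group in serum depletion. Its window (chr7:122159185-122159484, plus strand) holds both motifs and is shown with the motif letters in capitals on either strand.
Plk1: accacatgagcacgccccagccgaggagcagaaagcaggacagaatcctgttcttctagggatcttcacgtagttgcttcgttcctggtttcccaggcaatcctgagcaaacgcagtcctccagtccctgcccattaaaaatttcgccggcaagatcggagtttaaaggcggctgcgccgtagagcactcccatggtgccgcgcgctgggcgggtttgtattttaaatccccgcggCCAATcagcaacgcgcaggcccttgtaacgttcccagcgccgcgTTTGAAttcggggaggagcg

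The 5 spindle assembly checkpoint genes divided into 4 that fell with either treatment and *Bub3*. *Bub1*, the kinase that marks unattached kinetochores, was at 42.2 in control, 2.32 in serum depletion and 5.74 in GCDC, an 18.1-fold fall in serum depletion and a 7.35-fold fall in GCDC. *Ttk*, the MPS1 kinase that starts checkpoint signalling, was at 34.9 in control, 3.49 in serum depletion and 7.92 in GCDC (log2 ratios -3.32 and -2.14). Both genes had serum depletion levels below the highest of 96 negative control spots on that array (4.10), so these falls end near background. *Bub1b*, which encodes BUBR1 of the checkpoint complex, was at 30.7 in control, 9.14 in serum depletion and 9.66 in GCDC (log2 ratios -1.75 and -1.67). *Mad2l1*, encoding the MAD2 inhibitor of CDC20, was at 172 in control, 58.5 in serum depletion and 73.5 in GCDC (log2 ratios -1.55 and -1.22). *Bub3*, a WD-repeat partner of BUB1 and BUBR1, was higher on both treated arrays at 644 in control, 1051 in serum depletion and 1075 in GCDC, with log2 ratios of 0.71 and 0.74 that did not pass 2-fold.

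Of the centromere and kinetochore genes, 7 of 8 fell in serum depletion and 5 of 9 in GCDC. *Nuf2* and *Ndc80* encode the coiled-coil arms of the NDC80 complex, which holds microtubule ends, and *Spc24* and *Spc25* its base. *Nuf2* was at 42.4 in control, 4.37 in serum depletion and 3.57 in GCDC, a 9.72-fold and an 11.9-fold fall. Both treated levels were not far over the highest negative control spots of their arrays (4.10 and 2.80). *Ndc80* was at 40.1 in control, 9.27 in serum depletion and 13.3 in GCDC (log2 ratios -2.11 and -1.59). *Spc24* was at 46.4 in control, 8.45 in serum depletion and 37.5 in GCDC, so it fell in serum depletion (-2.46) and not in GCDC (-0.31). Its partner *Spc25* was at 4.88 in control and 2.97 in GCDC (log2 ratio -0.72) and fell short of validity in serum depletion. Its control level was 3.57-fold over the lowest valid level of the serum depletion array (1.37) and 1.19-fold over the highest negative control spot there (4.10). Within the NDC80 complex, *Ndc80* and *Spc24* were lowest on the serum depletion array and *Nuf2* on the GCDC array. *Cenpe*, the kinetochore kinesin, was at 31.8 in control, 5.01 in serum depletion and 8.99 in GCDC (log2 ratios -2.67 and -1.82). *Cenpa*, the histone H3 variant of centromeres, was at 196 in control, 60.5 in serum depletion and 87.7 in GCDC (log2 ratios -1.70 and -1.16). *Cenpk* and *Cenph*, subunits of the constitutive centromere network, had log2 ratios of -1.21 and -1.07 in serum depletion and -1.03 and -0.80 in GCDC. *Cenpf*, a large kinetochore protein of G2 and M phase, was at 60.8 in control, 42.0 in serum depletion and 38.9 in GCDC and did not pass 2-fold (-0.53 and -0.64).

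The chromosomal passenger complex, which corrects faulty attachments and guides cytokinesis, was read from 3 genes. *Birc5*, encoding survivin, was at 199 in control, 53.6 in serum depletion and 93.4 in GCDC and fell in both (log2 ratios -1.89 and -1.09). *Aurkb*, the catalytic subunit, was at 176 in control, 167 in serum depletion and 121 in GCDC and did not pass 2-fold (-0.08 and -0.54). *Incenp*, the scaffold, was near background at 3.68 in control and 2.57 in GCDC, the latter below the highest negative control spot (2.80), and it fell short of validity on the serum depletion array. The control level was 2.69-fold over the lowest valid level of the serum depletion array (1.37) and below its highest negative control spot (4.10), so no fall is stated.

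Of the mitotic kinesins, 5 of 6 fell in serum depletion (median log2 ratio -2.50) and 6 of 7 in GCDC (median -2.24). *Kif11*, the Eg5 motor that pushes spindle poles apart, was at 41.0 in control, 2.66 in serum depletion and 5.42 in GCDC, a 15.4-fold and a 7.58-fold fall. *Kif4*, a chromokinesin, was at 35.7 in control, 2.98 in serum depletion and 5.02 in GCDC (log2 ratios -3.58 and -2.83). The serum depletion levels of *Kif11* and *Kif4* were below the highest negative control spot of that array. *Kif20a*, a motor of the central spindle and cleavage furrow, was at 84.1 in control, 11.1 in serum depletion and 12.6 in GCDC (log2 ratios -2.92 and -2.74). *Kif22*, a chromokinesin that moves chromosome arms, was at 32.1 in control, 7.65 in serum depletion and 6.79 in GCDC (log2 ratios -2.07 and -2.24). *Kif23*, the motor of centralspindlin, had log2 ratios of -1.90 and -1.83. *Kif15*, a motor that works beside KIF11, was at 4.03 in control and 1.37 in GCDC (log2 ratio -1.56), the latter below the highest negative control spot, and it was not valid in serum depletion. Its control level was 2.95-fold over the lowest valid level of the serum depletion array and below the highest negative control spot there. No fall is therefore stated for *Kif15* in serum depletion. Its fall in GCDC is counted among the 6 of 7 and ends at background. *Kif18a*, which damps chromosome movements at metaphase, was at 17.9 in control, 15.4 in serum depletion and 10.4 in GCDC and did not pass 2-fold (-0.22 and -0.78). The windows of *Kif11* (chr19:37376132-37376431, plus strand) and *Kif4* (chrX:100625815-100626114, plus strand) carry 1 TTTGAA each, and 1 and 2 CCAAT, shown in capitals.
Kif11: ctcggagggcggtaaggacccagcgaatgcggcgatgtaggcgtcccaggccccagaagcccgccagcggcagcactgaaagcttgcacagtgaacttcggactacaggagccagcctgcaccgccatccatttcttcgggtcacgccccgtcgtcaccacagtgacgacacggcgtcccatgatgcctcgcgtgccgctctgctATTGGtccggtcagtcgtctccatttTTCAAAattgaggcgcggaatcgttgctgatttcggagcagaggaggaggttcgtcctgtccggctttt
Kif4: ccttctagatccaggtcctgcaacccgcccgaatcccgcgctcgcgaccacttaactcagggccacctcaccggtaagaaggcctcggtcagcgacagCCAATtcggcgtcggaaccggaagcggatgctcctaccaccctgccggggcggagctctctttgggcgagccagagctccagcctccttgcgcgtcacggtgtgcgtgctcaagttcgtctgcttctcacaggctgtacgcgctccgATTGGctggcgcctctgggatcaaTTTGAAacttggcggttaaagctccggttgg

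**Figure D3:**
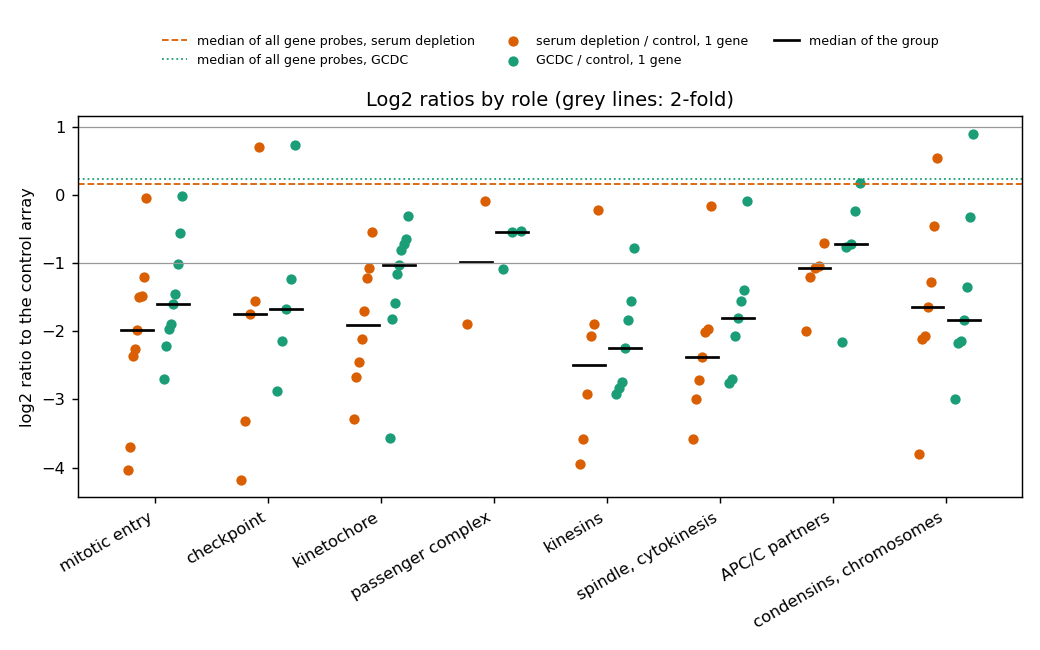
Log2 ratio to the control array (vertical axis) of each gene, by role, in serum depletion (orange) and GCDC (green), with the group median as a black bar, 2-fold as grey lines and the median of all gene probes as dashed and dotted lines. The medians of all 8 groups lie below 0, from -2.50 for the kinesins to -0.99 for the passenger complex (2 genes) in serum depletion, and from -2.24 to -0.54 in GCDC.

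Spindle and cytokinesis genes fell in 6 of 7 cases with either treatment. *Hmmr*, a spindle-associated hyaluronan receptor, was at 327 in control, 27.4 in serum depletion and 48.3 in GCDC, a 12-fold and a 6.78-fold fall. *Racgap1*, the GTPase-activating subunit of centralspindlin, was at 62.3 in control, 7.84 in serum depletion and 9.61 in GCDC (log2 ratios -2.99 and -2.70). *Anln*, encoding anillin of the contractile ring, was at 113 in control, 17.2 in serum depletion and 38.3 in GCDC (log2 ratios -2.71 and -1.56). *Nusap1*, which bundles spindle microtubules, was at 60.4 in control, 11.6 in serum depletion and 17.4 in GCDC (log2 ratios -2.38 and -1.80). On these 4 genes the control array was highest and the serum depletion array lowest. *Ect2*, the exchange factor that activates RhoA at the furrow, had log2 ratios of -1.97 and -2.07, and *Dlgap5*, a spindle assembly factor, -2.01 and -1.39. *Tpx2*, which activates Aurora A on the spindle, was at 127 in control, 114 in serum depletion and 119.7 in GCDC and moved little (-0.16 and -0.09). *Prc1*, which crosslinks the central spindle, was valid in control alone, at 1.87 and below the highest negative control spot there (2.72), so no fold is stated for it. The window of *Hmmr* (chr11:40733388-40733687, minus strand) carries 5 CCAAT and 1 TTTGAA.
Hmmr: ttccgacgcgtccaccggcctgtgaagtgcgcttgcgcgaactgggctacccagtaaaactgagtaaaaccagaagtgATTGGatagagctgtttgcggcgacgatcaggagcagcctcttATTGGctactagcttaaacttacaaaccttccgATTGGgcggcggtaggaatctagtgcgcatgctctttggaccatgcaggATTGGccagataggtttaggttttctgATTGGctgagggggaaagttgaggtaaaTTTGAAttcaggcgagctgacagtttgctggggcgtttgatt

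Of the 5 partners and substrates of the APC/C, 4 fell in serum depletion and 1 in GCDC, beside 11.1% and 8.51% of all gene probes. Their median log2 ratio of serum depletion over GCDC was -0.36. *Cdc20*, the activator of the APC/C at anaphase, was at 168 in control, 42.3 in serum depletion and 38.0 in GCDC and fell in both (log2 ratios -1.99 and -2.15). *Espl1*, encoding separase that cleaves cohesin, was at 29.1 in control, 14.2 in serum depletion and 17.3 in GCDC (log2 ratios -1.04 and -0.75). *Fzr1*, encoding the CDH1 activator that keeps the APC/C active after mitosis and in G1, was at 116 in control, 55.2 in serum depletion and 70.6 in GCDC (log2 ratios -1.07 and -0.71). *Pttg1*, encoding securin, the inhibitor of separase, was at 7.08 in control, 3.07 in serum depletion and 8.04 in GCDC, below control in serum depletion (-1.20) and slightly above it in GCDC (0.18), a sign that turned under other scalings. Its serum depletion level was below the highest negative control spot of that array. *Ube2c*, the ubiquitin-conjugating enzyme of the APC/C, was at 776 in control, 479 in serum depletion and 664 in GCDC and stayed within 2-fold (-0.70 and -0.23). *Ube2c*, which did not fall, is printed for its high mean ratio under the rule given above. Its window (chr2:164769679-164769978, plus strand) carries 1 TTTGAA and 6 CCAAT, 2 of which overlap on opposite strands.
Ube2c: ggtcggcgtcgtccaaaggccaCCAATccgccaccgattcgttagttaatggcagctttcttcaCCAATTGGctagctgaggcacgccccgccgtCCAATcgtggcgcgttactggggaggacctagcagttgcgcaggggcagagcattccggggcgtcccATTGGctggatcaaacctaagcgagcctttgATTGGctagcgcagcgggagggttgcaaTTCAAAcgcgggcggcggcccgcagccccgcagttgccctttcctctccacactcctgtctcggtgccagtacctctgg

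Condensin and chromosome genes fell in 5 of 7 cases in serum depletion and 5 of 7 in GCDC. *Top2a*, topoisomerase II alpha, which untangles sister chromatids, was at 159 in control, 11.4 in serum depletion and 19.9 in GCDC, a 13.9-fold and a 7.98-fold fall. *Mki67*, the Ki-67 proliferation marker that coats mitotic chromosomes, was at 87.1 in control, 20.1 in serum depletion and 24.6 in GCDC (log2 ratios -2.12 and -1.83). *Ncapg*, a subunit of condensin I, was at 30.5 in control, 7.30 in serum depletion and 6.92 in GCDC (log2 ratios -2.06 and -2.14), and its other probe fell too, at -2.65 and -2.38. *Ncapd2*, also of condensin I, was at 61.9 in control, 19.8 in serum depletion and 13.8 in GCDC (log2 ratios -1.64 and -2.16). The subunits of condensin I did not move together. *Smc2*, one ATPase shared by both condensins, fell on both probes (log2 ratios -1.28 and -1.35 on the brighter one), and *Smc4*, the other ATPase, had ratios of -0.44 and -0.32. *Ncaph*, the kleisin that closes the condensin I ring, was higher on both treated arrays, at 268 in control, 391 in serum depletion and 502 in GCDC (log2 ratios 0.54 and 0.91), and did not pass 2-fold. The window of *Top2a* (chr11:99024140-99024439, minus strand) holds 2 TTTGAA and 6 CCAAT, and that of *Ncaph* (chr2:127133905-127134204, minus strand) 0 of either motif. These are the chromosome genes with the lowest and the highest mean ratio.
Top2a: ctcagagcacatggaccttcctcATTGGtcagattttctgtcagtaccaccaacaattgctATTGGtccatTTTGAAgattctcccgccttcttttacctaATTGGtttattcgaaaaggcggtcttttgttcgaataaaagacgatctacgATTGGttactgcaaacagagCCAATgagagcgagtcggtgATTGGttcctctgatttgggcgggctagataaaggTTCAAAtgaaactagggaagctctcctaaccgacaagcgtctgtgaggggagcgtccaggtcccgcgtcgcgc
Ncaph: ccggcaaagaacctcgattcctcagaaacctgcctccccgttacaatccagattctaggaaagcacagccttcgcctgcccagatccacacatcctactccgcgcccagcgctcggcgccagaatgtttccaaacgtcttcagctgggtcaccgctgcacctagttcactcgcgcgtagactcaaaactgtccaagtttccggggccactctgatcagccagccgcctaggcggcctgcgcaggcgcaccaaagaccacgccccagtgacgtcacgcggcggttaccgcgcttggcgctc

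The treated arrays were also set against each other without the control array. Of 49 members, 8 were lower in serum depletion than in GCDC by more than 2-fold and 0 were higher, beside 2.92% and 2.2% of the 19751 gene probes compared (5.12% in either direction). By any amount 38 of 49 were lower in serum depletion, beside 58.9% of gene probes, and the medians of the log2 ratio were -0.33 and -0.08. The 8 genes were *Spc24* (-2.15), *Plk1* (-1.83), *Pttg1* (-1.39), *Bub1* (-1.30), *Ttk* (-1.18), *Anln* (-1.15), *Kif11* (-1.03) and *Ccna2* (-1.003). Of these, *Pttg1*, *Bub1*, *Ttk* and *Kif11* were within the range of the negative control spots in serum depletion. *Ttk*, *Anln*, *Kif11* and *Ccna2* lay within 1 SD of the spot error (0.26) of the 2-fold threshold. *Spc24* was the 1 member past 4-fold, a difference seen in 0.152% of gene probes. By more than 2 SD of the spot error (0.51), 19 members were lower in serum depletion and 2, *Kif18a* (0.56) and *Ncapd2* (0.52), were higher. Without scaling 29 of the 49 were lower, with a median of -0.13 beside 0.12 over all gene probes. The distance between these medians was -0.25, the same as with the scaling reported. After cyclic loess 33 were lower (median -0.23, beside -0.004) and with normexp 34 (median -0.07, beside 7.3e-05). No member was past 2-fold under every scaling in this comparison, and 9 changed sign among the scalings.

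**Figure D4:**
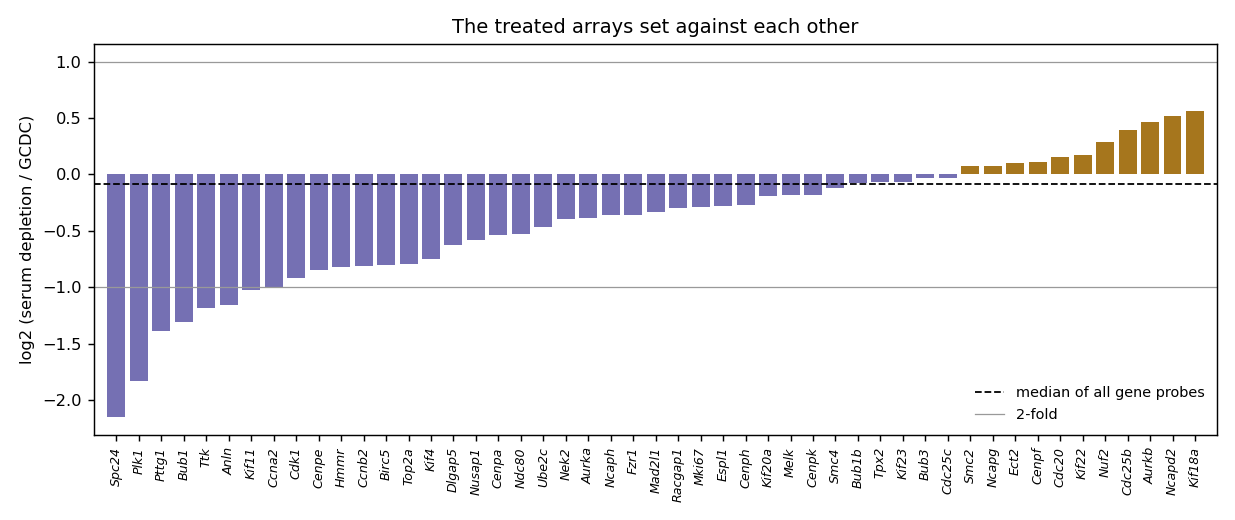
Log2 ratio of the serum depletion level to the GCDC level (vertical axis) for the 49 genes valid on both arrays, 1 bar per gene in order of the ratio, with 2-fold as grey lines and the median of all gene probes (-0.08) dashed. Bars below 0 number 38, and 8 of them, from *Spc24* to *Ccna2*, pass 2-fold.

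Other genes of the same machinery, outside the 53, were read from written lists. Of 61 other mitotic genes 56 were on the array, and 30 of 53 compared fell and 3 rose in serum depletion (median log2 ratio -1.19), as did 30 and 3 of 54 in GCDC (median -1.07). Over all gene probes compared, 11.1% fell and 13.5% rose in serum depletion, and 8.51% and 13% in GCDC. *Tacc3*, a spindle protein that binds clathrin, was at 92.7 in control, 6.68 in serum depletion and 12.9 in GCDC (log2 ratios -3.79 and -2.85). *Cep55*, which recruits the abscission machinery, was at 99.2 in control, 11.1 in serum depletion and 15.5 in GCDC (log2 ratios -3.16 and -2.68). *Kif20b*, a kinesin of cytokinesis, was at 53.6 in control, 7.65 in serum depletion and 8.73 in GCDC (log2 ratios -2.81 and -2.62). *Wee1*, the kinase that holds CDK1 inactive, was at 22.5 in control, 3.15 in serum depletion and 3.99 in GCDC (log2 ratios -2.84 and -2.50), the serum depletion level being below the highest negative control spot. The count fallen was 7 in serum depletion and 5 in GCDC with normexp, a background correction run with an offset of 50 that compresses the ratios of dim probes. The 3 that rose in both were *Cks1b*, a small CDK-binding subunit (log2 ratios 1.95 and 1.88), *Zwint*, a kinetochore protein (1.18 and 1.30), and *Ska1*, of the microtubule-binding SKA complex (1.13 and 1.01), named after their values were seen.

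The APC/C is also at work in resting cells, and a list of its subunits, which also held its partner enzyme gene *Ube2s*, was valid for all 15 genes, of which 3 fell and 4 rose in serum depletion (median log2 ratio -0.09) and 2 fell and 4 rose in GCDC (median 0.04). The rises depended on the scaling, with 3 and 0 risen after quantile normalization, 1 and 0 after cyclic loess and 1 and 0 without scaling, and the medians changed sign. Of all gene probes compared as reported, 11.1% fell and 13.5% rose in serum depletion, and 8.51% and 13% in GCDC. *Anapc1*, the largest scaffold, was at 148 in control, 36.9 in serum depletion and 42.2 in GCDC (log2 ratios -2.01 and -1.81), and *Cdc23*, a scaffold subunit with tetratricopeptide repeats, was at 120.1 in control, 43.9 in serum depletion and 48.8 in GCDC (-1.45 and -1.30). The small subunit gene *Anapc13* was at 464 in control, 1619.6 in serum depletion and 1019 in GCDC (1.80 and 1.13), and *Anapc10*, which helps to bind substrates, was at 175 in control, 420.0 in serum depletion and 419 in GCDC (1.26 and 1.26). *Anapc11*, the RING subunit, was the third that fell in serum depletion (-1.14, and -0.39 in GCDC), and *Anapc16* (1.19 and 1.12) and *Cdc26* (1.28 and 1.07) were the others that rose, all 3 named after their values were seen. Of 9 cohesin and condensin II genes compared in serum depletion 2 fell, and of 10 in GCDC 3 fell, with none risen. *Stag1*, a cohesin subunit, was at 78.2 in control, 15.5 in serum depletion and 17.2 in GCDC (log2 ratios -2.34 and -2.18), and *Wapl*, which releases cohesin, was at 88.8 in control, 21.5 in serum depletion and 37.0 in GCDC (-2.04 and -1.26). The core cohesin gene *Rad21* was at 218 in control, 109.5 in serum depletion and 129.6 in GCDC (-0.99 and -0.75), and the cohesin regulator *Pds5a* was at 207 in control, 120.1 in serum depletion and 118 in GCDC (-0.78 and -0.81), both within 2-fold. The third that fell in GCDC was *Ncapg2* of condensin II, at 4.87 in control and 1.23 in GCDC, the latter below the highest negative control spot there, and not valid in serum depletion.

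Of 13 genes for the MuvB core and the E2F and pocket proteins that repress cell cycle genes, 12 were compared. With either treatment 4 fell and 0 rose (medians -0.16 and -0.07), while 11.1% of all gene probes fell in serum depletion and 8.51% in GCDC. With normexp 2 of the 12 fell in serum depletion (median 0.03) and 0 in GCDC, and without scaling 6 fell in each. *E2f4*, a repressor E2F of resting cells, was at 54.8 in control, 6.42 in serum depletion and 7.04 in GCDC (log2 ratios -3.09 and -2.96). *Lin9*, a subunit of MuvB, was at 42.0 in control, 12.6 in serum depletion and 12.0 in GCDC (-1.73 and -1.80). *Lin54*, the subunit that contacts the CHR, was at 35.2 in control, 10.2 in serum depletion and 11.9 in GCDC (-1.79 and -1.56). *Rbl1*, encoding the pocket protein p107, was at 42.8 in control, 18.2 in serum depletion and 17.0 in GCDC (-1.23 and -1.33).

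**Figure D5:**
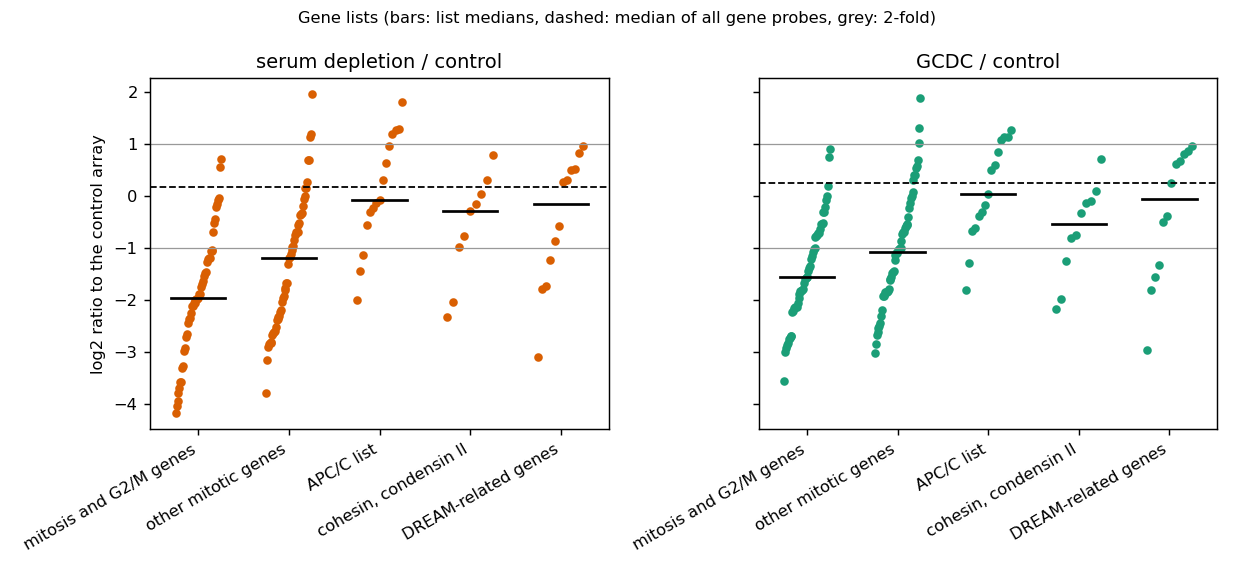
Log2 ratio to the control array (vertical axis) in serum depletion (left) and GCDC (right) for the mitosis and G2/M genes and the 4 written lists, 1 point per gene, with the list median as a black bar, the median of all gene probes dashed and 2-fold in grey. DREAM-related genes are the MuvB, E2F and pocket protein genes, and the medians run from -1.97 and -1.56 for the mitosis and G2/M genes to -0.09 and 0.04 for the APC/C list.

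Markers of other cell types were read beside these falls. Of all gene probes compared, 13.5% rose and 11.1% fell in serum depletion, and 13% rose and 8.51% fell in GCDC. Of 7 hepatocyte markers, all valid, 2 were past 2-fold higher with serum depletion and 0 with GCDC, and they summed to 206 in control, 464 in serum depletion and 194 in GCDC, and *Ttr*, a thyroid hormone carrier, was at 36.9 in control, 288 in serum depletion and 50.4 in GCDC. *Serpina1a* was at 5.92 in control, 17.1 in serum depletion and 11.7 in GCDC, *Apoa1* at 13.8 in control, 11.3 in serum depletion and 10.2 in GCDC, and *Alb* as given above. Of the mesenchymal and endothelial markers, 2 of 8 compared were past 2-fold higher with serum depletion and 1 of 7 with GCDC, and the 9 on the array summed to 77.9, 131 and 126 in the same order, with 9, 8 and 7 of them valid. Among these *Kdr* was at 20.4 in control, 49.1 in serum depletion and 50.8 in GCDC, *Col1a2* at 13.0 in control, 30.5 in serum depletion and 21.1 in GCDC, *Col1a1* at 6.55 in control, 12.0 in serum depletion and 9.29 in GCDC and *Cdh5* at 1.46 in control, 1.88 in serum depletion and 2.40 in GCDC. The 6 macrophage and lymphocyte markers on the array summed to 88.6, 92.3 and 118, with 4, 4 and 3 valid and none past 2-fold, and *Cd68* was at 42.5 in control, 43.8 in serum depletion and 63.5 in GCDC, *Csf1r* at 42.1 in control, 45.1 in serum depletion and 52.1 in GCDC and *Ptprc* at 2.62 in control, 1.83 in serum depletion and 2.49 in GCDC. Cholangiocyte markers summed to 84925, 90755 and 134070.0, and *Prom1*, a membrane protein of cholangiocytes and progenitors, was the 1 that fell (671 in control, 129.6 in serum depletion and 231 in GCDC), while *Krt19* was the 1 that rose, in GCDC (1.05). *Epcam* was at 1760.5 in control, 2607 in serum depletion and 2781 in GCDC, *Slc4a2* at 196 in control, 135 in serum depletion and 114 in GCDC and *Sctr* at 37.4 in control, 64.1 in serum depletion and 64.0 in GCDC. The part of these shifts in the mitotic ratios was not tested.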

How the data were processed

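The authors hybridised pooled RNA of 2 experiments per condition to 1 array each (control, serum depletion, GCDC) and deposited the scanner output, an intensity per spot, and a processed intensity table. The methods also describe a further microarray on other sample sets of each condition, in which major upregulated genes, IFIT3 among them, were found again. Its values are not among the 3 samples used here. The methods state that a mean of the blank spots was subtracted and that 2 SD of the blanks set validity. The percentiles of the blanks (5th to 95th) and the scaling to a median of 25 were found by matching the deposited table, which the recomputed values met within 0.07% at levels over 100. Probes were named through the platform annotation, with 20690 of 23473 carrying 1 symbol and 20556 matched to a current symbol by identifier. The members and lists were chosen with earlier results of these data known. Serum depletion and GCDC were each compared with control, and with each other, as ratios of levels valid on both arrays, with changes past 2-fold counted and, for want of replicates, no test. For a gene not valid on the treated array, the control level was set against the lowest valid level and the highest negative control spot there.

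Levels on all arrays were printed for the 4 members of each role, and of each list, with the largest mean of both log2 ratios in size, for members valid on fewer than 3 arrays and for the 6 largest differences between the treated arrays. Other genes were named after their values were seen. Alternatives were cyclic loess, unscaled signals, quantile normalization, normexp with an offset of 50, scaling by 75th percentiles or by probes valid on all 3 arrays, the deposited table, a limit of 5 SD, no filter, the mean of all probes of a gene, thresholds of 1.5-fold and 4-fold, and, added after seeing the data, a limit at the highest negative control spot. Steps were tested on simulated data. Loess and normexp came from limma 3.58.1 in R 4.3.3, and the rest from Python 3.11.15 (pandas 2.3.3, numpy 2.4.6, scipy 1.17.1, matplotlib 3.10.9).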

Additional observations from a re-analysis of the deposited data

Results flagged for a closer look

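*Pttg1*, encoding securin, was on either side of control, with a log2 ratio of -1.20 for serum depletion and 0.18 for GCDC, and the difference was not tested with 1 array each. In GCDC it did not pass 2-fold, and its ratio was smaller than the SD of the spot error (0.21). Its level in serum depletion (3.07) lay below the highest negative control spot of that array (4.10), and the sign in GCDC changed among the scalings tried.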

How the results depend on the processing

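Neither median over the members changed sign under the 11 alternatives run for the medians. A count cannot reverse, and over its 13 alternatives the count fallen ran from 17 to 43 in serum depletion and from 14 to 44 in GCDC. The count apart between the treated arrays ran from 0 to 16. One of these alternatives, the deposited table, was the one the scaling had been matched to. Normexp with an offset of 50, which compresses ratios of dim probes by construction, gave 17 members fallen in serum depletion (median log2 ratio -0.77), 14 in GCDC (median -0.62) and 0 more than 2-fold apart between the treated arrays. Without scaling the medians were -2.41 and -2.21, and 4 were apart, since the median of all gene probes itself moved to -0.28 and -0.41. The distance of the member median from that of all gene probes was -2.13 in serum depletion and -1.79 in GCDC as reported. Multiplying a whole array by a constant cannot change this distance, so it is the same without scaling. It was -2.06 and -1.68 after quantile normalization, -2.01 and -1.68 after cyclic loess, and -0.79 and -0.63 with normexp. The count of members apart between the treated arrays was 8 as reported, 5 with a limit of 5 SD, 4 with the limit at the highest negative control spot, 16 at 1.5-fold and 1 at 4-fold. At 1.5-fold 1 member was higher in serum depletion and 2 in GCDC, and at 4-fold 22 and 16 were lower. In serum depletion 16 of 49 members, and in GCDC 13 of 52, were past 2-fold lower under every scaling, normexp included. The sign of *Cdc25c* changed among the scalings in both comparisons, that of *Aurkb* in serum depletion and that of *Pttg1* in GCDC. Between the treated arrays 9 of 49 members changed sign among the scalings, and 0 were past 2-fold under every scaling. No paired analysis was possible because each condition had 1 array.

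Precision is limited by the number of arrays, and with 1 per condition the array and the treatment cannot be told apart. Signals near the blanks limit the largest falls, since 8 levels of valid members lay at or below the highest negative control spot. Genes of longer genomic span were lower on both treated arrays over all gene probes (Spearman's rho -0.21 and -0.22 across genes, which are no replicates), and the median span of the members was 28.1 kb beside 19.7 kb over all gene probes in serum depletion. The part of span in the ratios was not tested.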
